A study of Mus musculus with 4 samples.

Results

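The genes described here build and run the transport system of the primary cilium: 38 genes chosen by name, of 52636 in the deposited table, that encode intraflagellar transport (IFT) proteins, the BBSome and its helpers, transition zone proteins, a ciliary kinase, a tubby adaptor and ciliary GTPases; kinesin motors are not among them. They were measured by RNA sequencing in retinas of 3-week-old mice of the mutant genotype labelled Q344X (2 libraries) and of WT mice of the same age (2 libraries). The labels give polyadenylated RNA and no further agent or allele in either group, and they do not say whether the mutation was a knock-in or a transgene, how many copies the mice carried, or whether a library held 1 animal. The study began with more animals and kept 2 per group after removing samples of low RNA quality and outliers, by its design text, while the extraction protocol counts 3 Q344X and 2 WT mice.

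The photoreceptor outer segment is a modified primary cilium, joined to the inner segment by a connecting cilium through which all of its proteins must pass. IFT trains carry cargo along the axoneme: the IFT-B complex serves transport toward the tip, and the IFT-A complex serves the return and the entry of membrane proteins. The BBSome is a coat-like complex that takes membrane proteins out of the cilium, and the transition zone at its base is the gate between cilium and cell body. Mutations in many of these genes cause retinal degeneration in people, alone or as part of Bardet-Biedl, Joubert, Senior-Løken or Meckel syndromes.

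In Q344X retina 7 of the 38 genes fell and 1 rose relative to WT (limma, adjusted p under 0.05). The genes with the largest falls were Bbs10 and Bbs12, which encode chaperonin-like proteins needed to assemble the BBSome, followed by Ift80 and the kinase gene Mak. Ift22, Arl13b and Bbs4 also fell, by less, and Tulp3 rose. Expression is given as normalized counts, reads per gene divided by a scale factor for the library, and a log2 fold change is Q344X over WT on the log2(normalized count + 1) scale. The other 30 did not pass the threshold. All 38 had a mean normalized count of at least 10 and were tested among 16833 genes. Of all genes tested 14.6% passed, 9.10% lower and 5.46% higher, against 21.1% of the 38, 18.4% lower and 2.63% higher. The median log2 fold change was -0.24 over the 38 and 0.02 over all genes tested, and 26 of the 38 had values below 0. They lie on 17 chromosomes.

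Depth, as recovered from the normalized values, was 19034261 and 19346580 reads in genes in Q344X replicates 1 and 2 and 18452679 and 19706573 in WT replicates 1 and 2. Of 9 rod marker genes 2 fell and 0 rose (limma). Their summed level was 346926 and 398521 normalized counts in Q344X against 536506 and 594004 in WT. The sum is weighted toward the most abundant genes. By gene, the median log2 fold change of the 9 was -0.04, with 7 below 0 and 2 above. Rod markers were present in all 4 libraries of this retinal tissue. Of 7 cone marker genes 4 fell. All 7 had values below 0, with a median of -1.05, and 6 were lower at an unadjusted p under 0.05 (limma). Among the other retinal lists, 1 of 7 bipolar, 1 of 6 ganglion and 2 of 5 pigment epithelium markers rose. In the same fit 1 of 6 Muller glia and 1 of 6 amacrine markers fell. All 6 Muller glia markers had values below 0, with a median of -0.16, and the amacrine markers were 3 above and 3 below. For microglia 0 of 6 markers passed (limma, also 0 at an unadjusted p under 0.05). All 6 ganglion markers had values above 0, with a median of 0.76, and 5 were higher at an unadjusted p under 0.05 (limma). The bipolar markers were mixed, 4 above 0 and 3 below. The part of these marker changes in the results below was not tested, and in whole retina fewer cells of a type and less RNA per cell cannot be told apart. Q344X replicate 2 stood apart in lens genes: 6 lens markers summed to 176740 and 5272 in Q344X replicates 1 and 2, against 190935 and 228142 in WT replicates 1 and 2. Without that library 8 of the 38 genes were lower and 2 higher, where 19.3% of all genes passed, 11.7% lower and 7.61% higher.

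**Figure D1:**
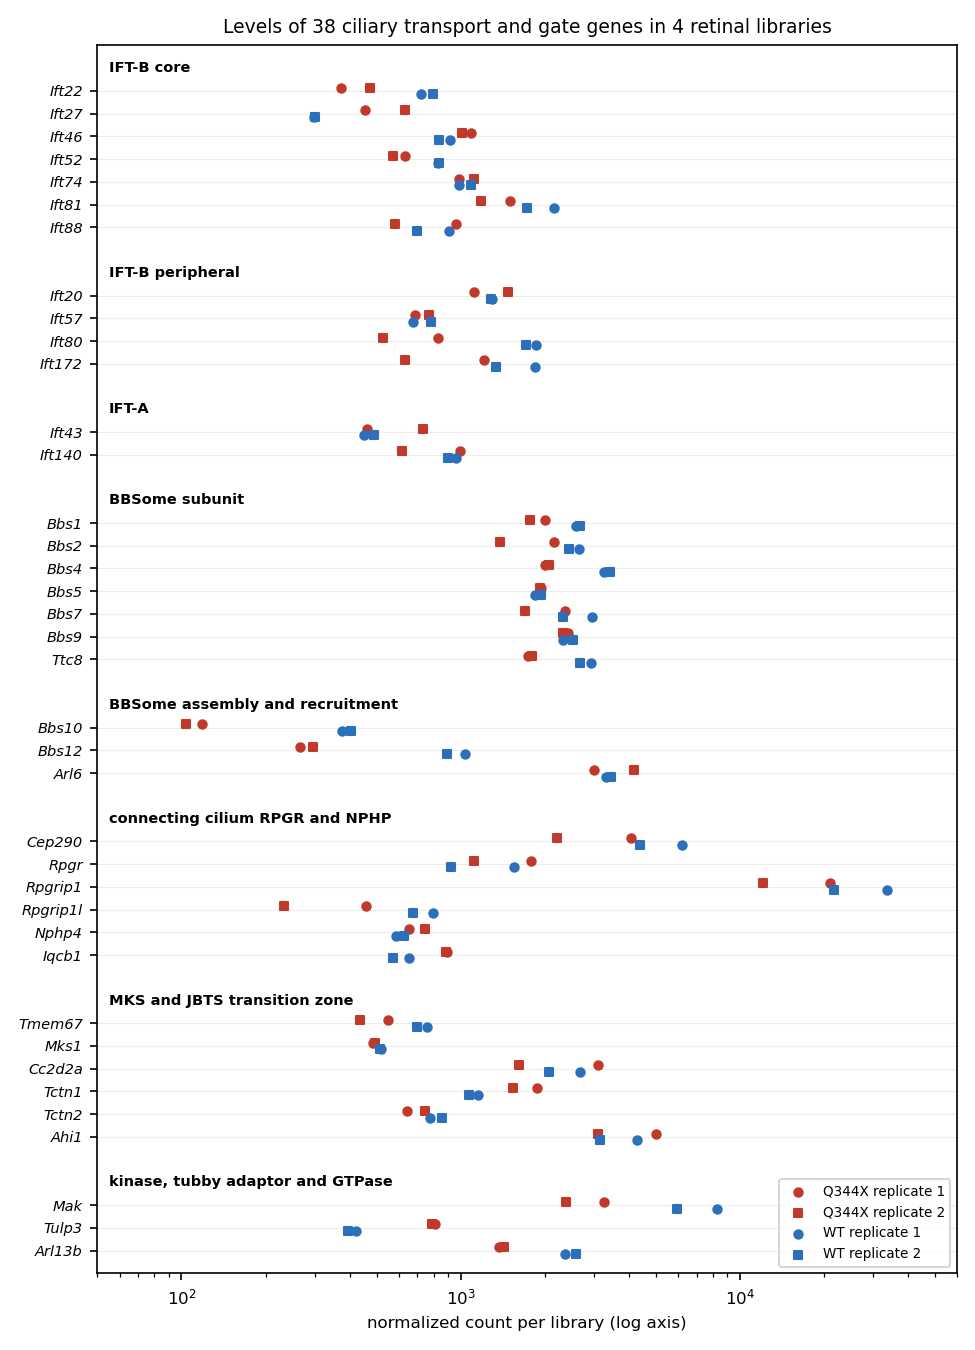
Normalized count of each of the 38 genes in each library, on a log axis, grouped by role. Red symbols are the Q344X libraries and blue symbols the WT libraries, with circles for replicate 1 and squares for replicate 2; Rpgrip1 has the highest counts, and Bbs10 and Bbs12 show wide gaps between the genotypes.

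Promoters of ciliary genes often hold an X-box, the binding motif of RFX transcription factors, a pair of inverted half-sites. RefSeq promoter windows (GRCm38.p6, 250 bases before to 50 after each annotated start) were matched by symbol for 35 of the 38 genes and searched on both strands for the letters GTNNCCNNGGNNAC. A match was found in 10 of the 35 genes (28.6%), in 8 of 50 other ciliary genes with a window (16%) and in 2.16% of all 27025 genes with a window. The matches are shown because the motif was found in a larger share of these windows than of all windows. Each is printed 5′ to 3′ on the gene's strand with its flanks in lower case and the letters that matched in capitals.
Ift22 distal, chr5:136908079-136908108, plus strand: ctgtcaggGTTTCCTGGGCTACtgcgcagc
Ift22 proximal, chr5:136908109-136908138, plus strand: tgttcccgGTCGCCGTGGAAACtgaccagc
Ift57, chr16:49699199-49699228, plus strand: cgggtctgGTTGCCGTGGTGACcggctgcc
Bbs1, chr19:4906605-4906634, minus strand: ctgagctgGTTGCCAAGGCGACgcctggga
Bbs4, chr9:59353464-59353493, minus strand: ctcagctgGTCGCCCGGGAAACggtcggct
Bbs7, chr3:36613489-36613518, minus strand: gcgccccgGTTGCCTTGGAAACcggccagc
Nphp4, chr4:152477903-152477932, plus strand: cggtgcccGTCTCCTAGGTAACgcgccagc
Mks1, chr11:87853183-87853212, plus strand: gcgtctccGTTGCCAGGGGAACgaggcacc
Tctn1, chr5:122264411-122264432, minus strand: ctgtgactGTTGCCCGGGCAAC
Tctn2, chr5:124598679-124598708, plus strand: gattggagGTTACCATGGCTACtggtcctc
Ahi1, chr10:20952560-20952589, plus strand: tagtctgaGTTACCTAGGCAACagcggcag

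Ift22 held 2 matches, starting 63 and 33 bases before the annotated start. The log2 fold changes of genes with and without this motif overlapped. The 10 with a match had a median log2 fold change of -0.15, between -0.85 for Ift22 and 0.60 for Tctn1, with 2 lower and 0 higher. The 25 without one had a median of -0.09, between -1.80 for Bbs10 and 0.97 for Tulp3, with 4 lower and 1 higher. The difference between these medians was not tested. Among all genes tested 9.10% were lower and 5.46% higher. RFX genes themselves are in the list of other ciliary genes below.

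**Figure D2:**
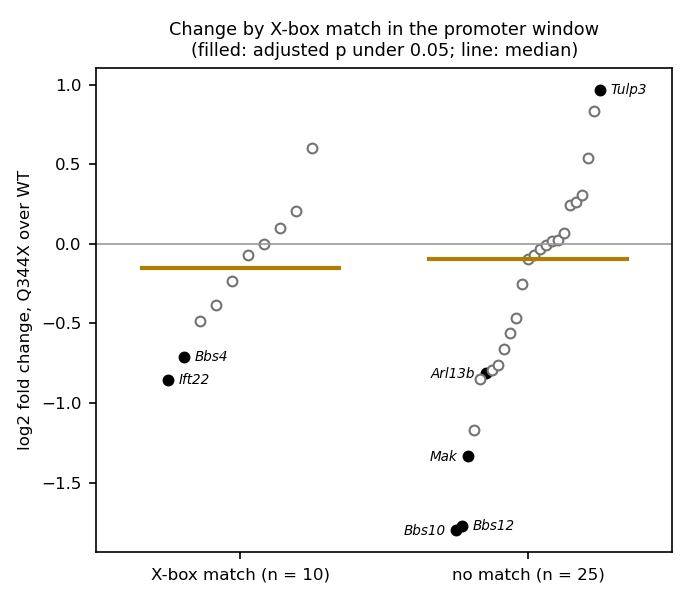
Log2 fold change, Q344X over WT, of the 35 genes with a promoter window, split by whether the window held an X-box match; filled points passed the threshold and lines are medians. Bbs10, Bbs12, Mak, Arl13b and Tulp3 stand in the column without a match, and Ift22 and Bbs4 in the column with one.

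Of 3 genes for the assembly and recruitment of the BBSome, 2 fell and 1 did not pass, where 9.10% of all genes tested were lower. Bbs10 (ENSMUSG00000035759, chromosome 10, 111298679 to 111301727, GRCm38) was at 119 and 104 normalized counts in the Q344X libraries, against 374 and 404 in the WT libraries. Bbs12 (ENSMUSG00000051444, chromosome 3, 37312554 to 37321453) was at 266 and 296 in Q344X, against 1038 and 892 in WT. In both genes every Q344X library was below every WT library and the libraries of a genotype lay close together, and such separation alone was seen in 63.1% of all genes tested. The log2 fold changes were -1.80 ± 0.21 (SE, adjusted p = 0.00881, limma) for Bbs10 and -1.77 ± 0.19 (adjusted p = 0.00789) for Bbs12. On this scale they were at 0.287 and 0.292 of the WT level, and both were among the 5% of all tested genes with the lowest values, at percentiles 4.26 and 4.38. Both kept their calls under all 13 alternatives, which no other gene of the 38 did. Mkks, the remaining BBS gene of the chaperonin type, is in the list of other ciliary genes and was joined to this pair after its values were seen. It was at 350 and 495 in Q344X against 1034 and 1334 in WT (-1.49 ± 0.25, adjusted p = 0.0200, limma). Arl6, whose small GTPase recruits the BBSome to membranes, was at 3001 and 4192 in Q344X against 3318 and 3459 in WT. Its groups overlapped, and the log2 fold change was 0.07 with a 95% interval of -0.46 to 0.60. Exons of Bbs12 share 32 bases with Cetn4 on the opposite strand, which was at 58.4 and 67.2 in Q344X against 132 and 91.2 in WT.

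Neither Bbs10 nor Bbs12 had an X-box match. The 250 bases before each start are shown because these genes fell together, with matches to the GC box (GGGCGG on either strand) in capitals.
Bbs10, chr10:111298429-111298678, plus strand: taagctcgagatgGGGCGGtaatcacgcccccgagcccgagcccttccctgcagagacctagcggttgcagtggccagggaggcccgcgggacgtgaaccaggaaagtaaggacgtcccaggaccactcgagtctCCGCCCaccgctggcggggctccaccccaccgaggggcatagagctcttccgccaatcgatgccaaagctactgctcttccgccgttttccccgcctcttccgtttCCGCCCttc
Bbs12, chr3:37312304-37312553, plus strand: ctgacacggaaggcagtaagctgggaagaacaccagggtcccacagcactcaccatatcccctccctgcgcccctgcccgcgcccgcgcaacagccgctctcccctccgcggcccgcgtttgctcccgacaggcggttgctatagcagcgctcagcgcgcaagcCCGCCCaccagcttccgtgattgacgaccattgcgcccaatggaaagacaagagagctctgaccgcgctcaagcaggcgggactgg
There were 3 GC boxes before the start of Bbs10 and 1 before that of Bbs12. A GC box was found in the windows of 60% of the 35 genes and of 38.2% of all genes.

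Of 7 genes for subunits of the BBSome itself, Bbs4 fell, 0 rose and 6 did not pass, with a median of -0.49. That share, 14.3%, was close to the 14.6% of all genes tested. Bbs4 (ENSMUSG00000025235, chromosome 9, 59321990 to 59353508), whose protein binds pericentriolar material, was at 2012 and 2075 in Q344X against 3270 and 3416 in WT. The libraries of each genotype nearly coincided, and the log2 fold change was -0.71 ± 0.16 (SE, adjusted p = 0.0423, limma). Its exons share 194 bases with Adpgk on the opposite strand, which was at 336 and 331 in Q344X against 538 and 555 in WT. Whether counting used the strand is not known here, so reads from such shared stretches cannot be assigned. Ttc8, also known as Bbs8, missed the threshold narrowly at -0.66 ± 0.17 (adjusted p = 0.0525, limma). Bbs5, the subunit gene with the highest level per length, was at 1933 and 1928 in Q344X against 1853 and 1942 in WT, and its interval of -0.38 to 0.43 leaves out a change of 1 in either direction. Bbs9 had -0.03, Bbs7 -0.39, Bbs1 -0.49 and Bbs2 -0.56, none past the threshold. Per kilobase of exon, the 7 genes lay between 246 for Bbs1 and 790 for Bbs5 in Q344X, and the same genes were lowest and highest in WT.

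Among the IFT-B genes 2 of 11 fell, where 9.10% of all genes tested were lower. Ift80 (ENSMUSG00000027778, chromosome 3, 68892499 to 69004570) encodes a peripheral subunit mutated in human skeletal ciliopathy. It was at 829 and 525 normalized counts in Q344X against 1857 and 1712 in WT, so the groups were well apart although the Q344X libraries differed from each other. The log2 fold change was -1.43 ± 0.26 (SE, adjusted p = 0.0241, limma), and every fit that left out 1 library kept the call. Ift22 (ENSMUSG00000007987, chromosome 5, 136908150 to 136915404), a Rab-like GTPase of the core, was at 371 and 473 in Q344X against 720 and 799 in WT. Its log2 fold change was -0.85 ± 0.21 (adjusted p = 0.0461, limma). Without WT replicate 1 it was -0.93 (adjusted p = 0.151) and without WT replicate 2 it was -0.78 (adjusted p = 0.236), so the call ended while the size stayed similar.

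Ift27, the other Rab-like GTPase of the core, had the opposite sign. It was at 453 and 630 in Q344X against 298 and 300 in WT. The groups did not overlap, and the log2 fold change of 0.83 ± 0.23 was just short of the threshold (adjusted p = 0.0600, limma). Ift74, the core gene with the highest level per length, was at 986 and 1115 in Q344X against 987 and 1087 in WT. That is a difference of 0.02 with a 95% interval of -0.42 to 0.46. Of the remaining core genes Ift46 had 0.26, Ift88 -0.09, Ift52 -0.47 and Ift81 -0.54, none past the threshold. In the peripheral group Ift20, which also sits at the Golgi, was at 1113 and 1480 in Q344X against 1300 and 1281 in WT. Ift57 was at 687 and 768 in Q344X against 676 and 784 in WT. Both had overlapping groups, with a log2 fold change of -0.01 for Ift20 and one still nearer to 0 for Ift57. Ift172 had -0.85 ± 0.35 (adjusted p = 0.146, limma), with 1210 and 631 in Q344X against 1847 and 1341 in WT. Its groups did not overlap, but on the log2 scale the Q344X libraries differed from each other by more than the genotype means did.

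Of the 2 IFT-A genes neither passed, where 14.6% of all genes tested did, and neither had an unadjusted p under 0.05 (limma). Ift43 was at 460 and 731 in Q344X against 449 and 489 in WT, and Ift140 at 996 and 614 in Q344X against 966 and 899 in WT. The groups overlapped in both, and in both Q344X replicate 2 was the library farthest from the others, in opposite directions.

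**Figure D3:**
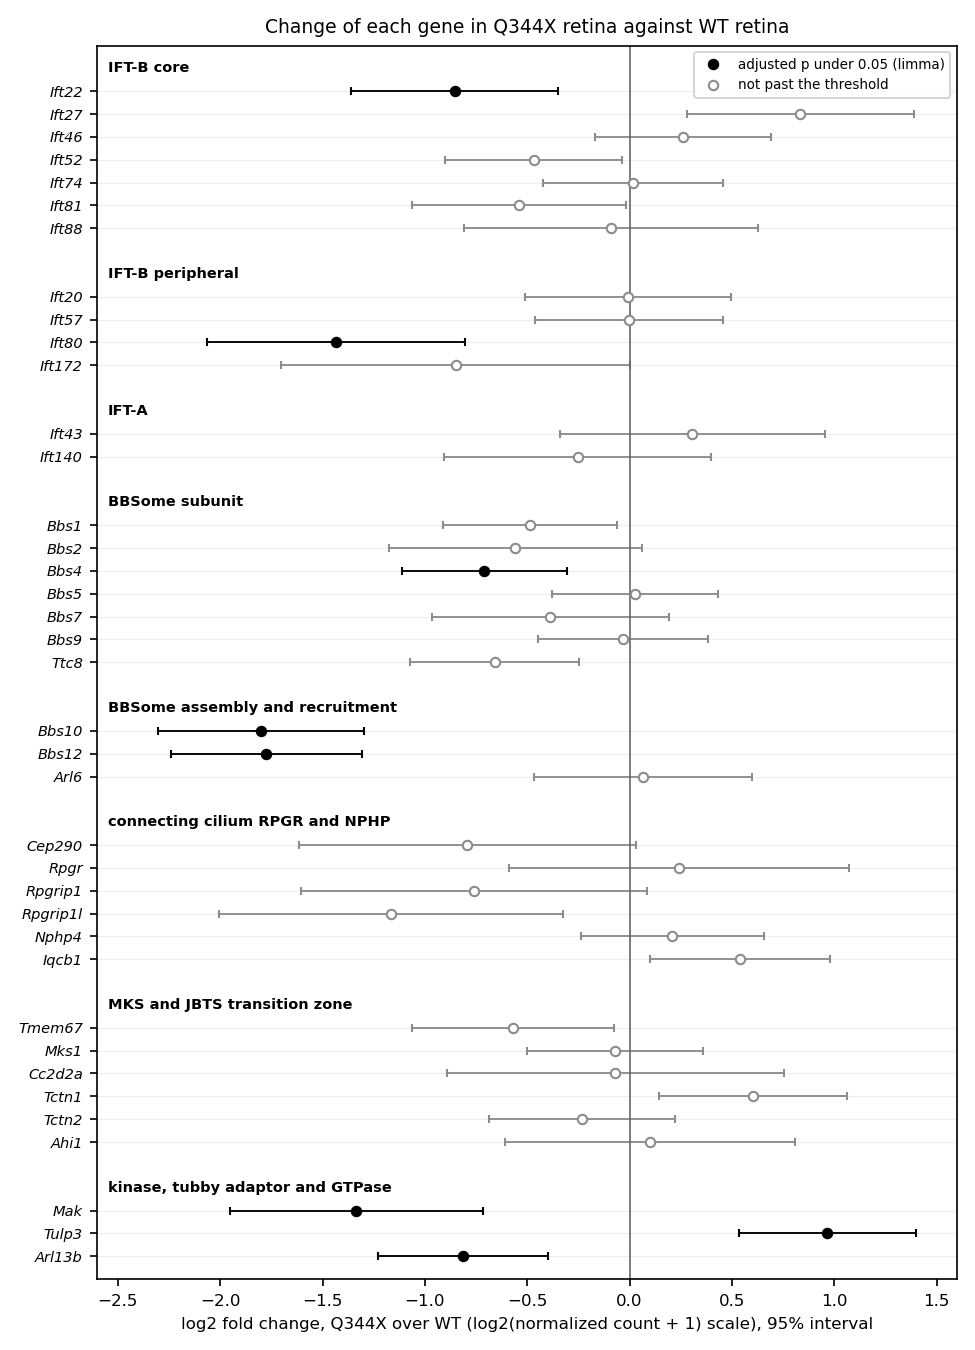
Log2 fold change of each gene, Q344X over WT, with its 95% interval from limma, grouped by role. Filled points passed the threshold; 7 lie left of 0 and 1, Tulp3, lies right of it.

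Mak, Arl13b and Tulp3, the 3 genes grouped here as kinase, GTPase and tubby adaptor, passed, 2 lower and 1 higher. Over all genes tested 14.6% passed, 9.10% lower and 5.46% higher. Of the GTPase genes described above in other groups, Ift22 was lower, and Arl6 and Ift27 did not pass. Mak (ENSMUSG00000021363, chromosome 13, 41025008 to 41079706) encodes a kinase of the photoreceptor axoneme that limits its length in mice and is mutated in human retinitis pigmentosa. It was at 3250 and 2391 normalized counts in Q344X against 8306 and 5956 in WT. The genotypes did not overlap, and the log2 fold change was -1.33 ± 0.25 (SE, adjusted p = 0.0264, limma). Without WT replicate 1 it was -1.09 (adjusted p = 0.0623). Arl13b (ENSMUSG00000022911, chromosome 16, 62793685 to 62847040), the gene of a membrane-bound ciliary GTPase mutated in Joubert syndrome, was at 1373 and 1432 in Q344X against 2358 and 2580 in WT. Its libraries were tight within each genotype, with a change of -0.81 ± 0.17 (adjusted p = 0.0325, limma).

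Tulp3 had the opposite sign. It encodes a tubby protein that links membrane receptors to IFT-A for entry into the cilium. Tulp3 (ENSMUSG00000001521, chromosome 6, 128321161 to 128355851) was at 809 and 789 normalized counts in Q344X against 422 and 395 in WT, so the genotypes stood apart with little spread inside either. The log2 fold change was 0.97 ± 0.18 (SE, adjusted p = 0.0249, limma), at percentile 92.3 of all genes tested. Leaving out either WT library ended the calls of Arl13b (adjusted p = 0.167 and 0.235 without WT replicates 1 and 2), Bbs4 (0.272 and 0.284) and Tulp3 (0.104 and 0.144). With no filter on low values, which adds many genes to the adjustment, the adjusted p was 0.0744 for Ift80, 0.0802 for Mak and 0.0605 for Tulp3 (limma), and Bbs10 and Bbs12 alone passed. In the same family Tulp1, the photoreceptor tubby gene mutated in human retinal dystrophy, had -0.61 and Tub 0.20, neither past the threshold.

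No transition zone gene among the 38 passed, where 14.6% of all genes tested did. In the group of the RPGR complex and the nephrocystins, 0 of 6 passed in limma, with 1 higher and 1 lower at an unadjusted p under 0.05. Rpgrip1, which anchors RPGR at the connecting cilium, had the highest normalized counts of the 38 genes in every library. It was at 21036 and 12109 normalized counts in Q344X against 33738 and 21667 in WT, and its change of -0.76 ± 0.34 (SE, adjusted p = 0.178, limma) was about as large as the difference between libraries of a genotype. Cep290, a Y-link protein of the gate and a frequent cause of congenital blindness in people, had the same pattern, with 4070 and 2219 in Q344X against 6192 and 4373 in WT (-0.79 ± 0.34, adjusted p = 0.157, limma). Rpgrip1l had the lowest value of the group, -1.17 ± 0.34 (adjusted p = 0.0719, limma), at 459 and 232 in Q344X against 797 and 678 in WT. Iqcb1, the gene of nephrocystin 5, had the highest, 0.54 ± 0.18 (adjusted p = 0.0931, limma), at 893 and 883 in Q344X against 651 and 573 in WT. Its groups did not overlap and its Q344X libraries agreed closely. Rpgr had 0.24 and Nphp4 0.21, with groups that overlapped in Rpgr and not in Nphp4. Exons of Rpgrip1 share 1057 bases with Supt16 and those of Cep290 share 881 with 4930430F08Rik, both on the opposite strand. Those of Rpgr share 208 with Srpx on the same strand. The counts of such genes may not be fully separate.

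In the group of genes known from Meckel and Joubert syndromes, 0 of 6 passed in limma, where 14.6% of all genes tested did. At an unadjusted p under 0.05 (limma) 1 was higher and 1 lower. Tctn1, a tectonic of the transition zone membrane, was at 1870 and 1536 in Q344X against 1155 and 1076 in WT, which gave 0.60 ± 0.19 (SE, adjusted p = 0.0809, limma). Its exons share 1574 bases with Hvcn1 on the opposite strand, a gene at 29.7 to 40.1 normalized counts in all 4 libraries. Tmem67, encoding meckelin, was at 551 and 437 in Q344X against 759 and 700 in WT (-0.57 ± 0.20, adjusted p = 0.108, limma). Groups did not overlap in either gene. Exons of Tmem67 share 289 bases with Rbm12b2 on the opposite strand, which was at 353 and 299 in Q344X against 770 and 554 in WT. Ahi1, jouberin, the gene with the highest level per length here, was at 5006 and 3098 in Q344X against 4272 and 3168 in WT and overlapped. Mks1 and Cc2d2a both had -0.07 and Tctn2 had -0.23. Mks1 was measured with less spread, and its interval of -0.50 to 0.36 is narrower than that of Cc2d2a, -0.89 to 0.75.

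A missed threshold does not show that a gene was the same in both genotypes. Of the 30 genes that did not pass, 19 had a 95% interval within a log2 change of 1 in either direction, and for the other 11 a change of that size is not excluded. Standard errors ran from 0.16 for Bbs4 to 0.35 for Ift172. The groups did not overlap in 25 of the 38 genes (65.8%), against 63.1% of all genes tested.

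Levels between genes were compared per kilobase, as normalized counts divided by the union of annotated exons, which understates genes with many rarely used exons. Rpgrip1 was highest in WT, at 1364 ± 519 in Q344X and 2280 ± 702 in WT (SD, n = 2), and Arl6 was highest in Q344X, at 1714 ± 402 in Q344X and 1615 ± 47.4 in WT. These neighbours in the order do not differ beyond their spread in either genotype. Mak was the next in WT, at 372 ± 80.0 in Q344X and 939 ± 219 in WT, and stood below Ift20, Bbs5, Ahi1, Bbs2, Ttc8 and others in Q344X. At the low end, Tulp3 was at 85.5 ± 1.50 per kilobase in Q344X and 43.7 ± 2.06 in WT, where it was the lowest of the 38, and Rpgrip1l was the lowest in Q344X, at 23.5 ± 10.9, with 50.2 ± 5.72 in WT. Bbs10 was at 36.5 ± 3.51 in Q344X and 128 ± 6.88 in WT.

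Exon length went with differences between libraries of one genotype. The 38 genes are long, with a median of 5940 exon bases against 4106 over all genes tested. Across them, the log2 difference between Q344X replicates 2 and 1 correlated with log2 exon length at r = -0.70, and that between the WT replicates at r = -0.49 (n = 38 genes that share the same libraries, given as a description). The replicate differences of the 2 genotypes correlated with each other at r = 0.75 across the 38 genes and at r = 0.48 across 16806 genes tested with a length, although the numbers come from accession order. In the 19 genes with at least the median length, the median difference between replicates 2 and 1 was -0.44 in Q344X and -0.12 in WT. In the 19 shorter genes it was 0.04 in Q344X and 0.00 in WT. Over all tested genes the 4199 longest had medians of -0.26 in Q344X and -0.08 in WT, and the 4205 shortest had 0.27 in Q344X and 0.10 in WT. The change between genotypes followed length less, with r = -0.14 across the 38. The part of length in the changes was not tested beyond the correction given next. Without Q344X replicate 1, 9 further genes passed (limma), long and short: Rpgrip1l (-1.66), Ift172 (-1.32), Cep290 (-1.23), Rpgrip1 (-1.16), Bbs2 (-0.88), Tmem67 (-0.74), Ift81 (-0.71), Ttc8 (-0.64) and, higher, Ift27 (1.07). In that fit 15 of the 38 genes were lower and 2 higher, where 32.3% of all genes passed, 18.1% lower and 14.2% higher. With each library corrected for exon length and GC content, 6 of the 38 were lower and 3 higher, where 23.0% of all genes passed, 11.4% lower and 11.6% higher. Bbs10, Bbs12, Ift80, Ift22, Mak and Tulp3 passed there, Bbs4 (adjusted p = 0.0792, limma) and Arl13b (0.0502) did not, and Rpgrip1l, Ift27 and Iqcb1 passed in addition.

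**Figure D4:**
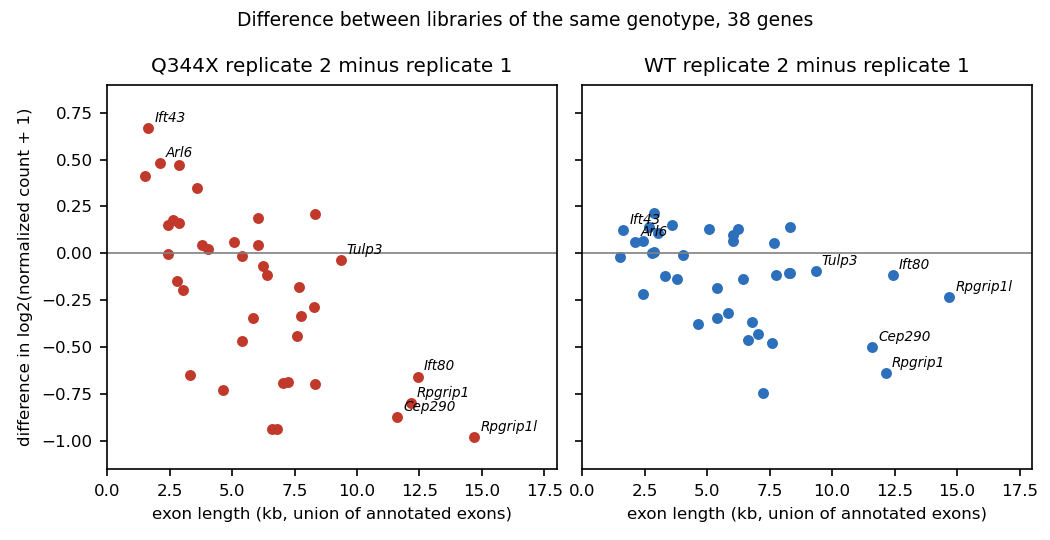
Difference in log2(normalized count + 1) between replicates 2 and 1 of Q344X (left) and of WT (right) against exon length in kilobases, for the 38 genes. Points run downward with length in both panels, more steeply in Q344X, where Rpgrip1l is near -1 and Ift43 at 0.67.

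**Figure D5:**
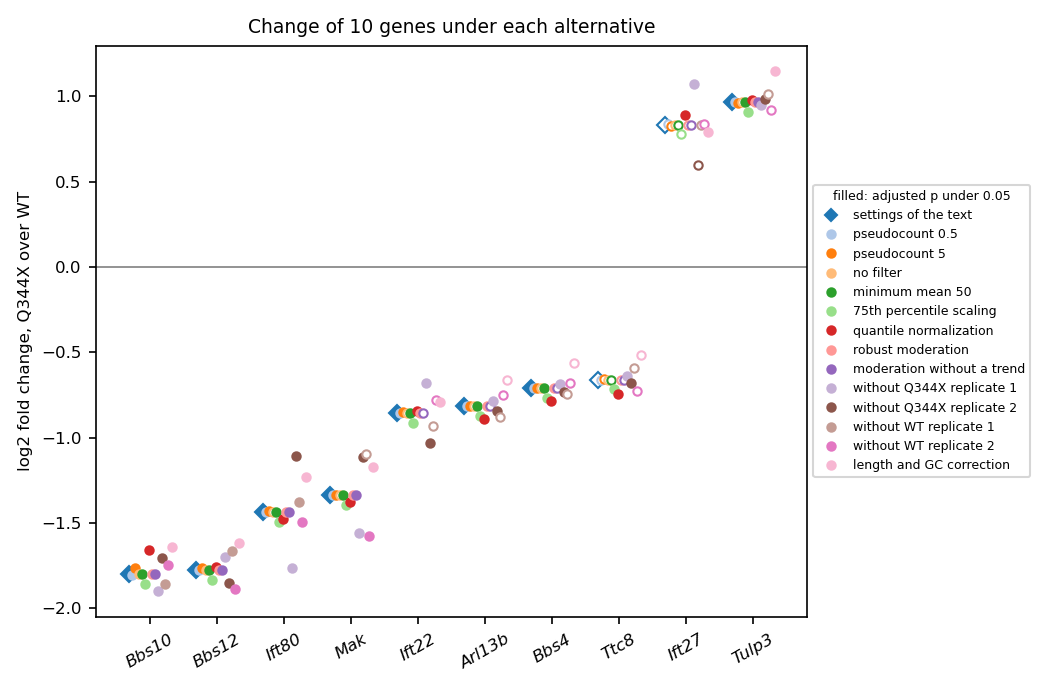
Log2 fold change, Q344X over WT, of 10 genes under the settings of the text (diamonds) and 13 alternatives (circles), with filled symbols where the adjusted p was under 0.05. Bbs10 and Bbs12 are filled throughout, and no gene changes sign.

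Other ciliary genes, from a list of 61 that holds no gene named in the 38, were fitted in the same way. Of 59 tested, 4 fell and 1 rose (6.78% and 1.69%), with a median of -0.20. Over all genes tested 9.10% were lower and 5.46% higher. With the length and GC correction 9 of the list were lower and 5 higher, where 11.4% of all genes were lower and 11.6% higher. The difference in calls between this list and the 38 was not tested. Cep164, which encodes a distal appendage protein that docks the basal body and recruits the kinase of Ttbk2, had the largest fall, at 1007 and 769 normalized counts in Q344X against 4024 and 3656 in WT (-2.12 ± 0.20, SE, adjusted p = 0.00600, limma). It passed under all 13 alternatives. Mkks is described above. Invs, the inversin gene, was at 155 and 101 in Q344X against 425 and 287 in WT (-1.47), and Tmem107 at 144 and 214 in Q344X against 374 and 453 in WT (-1.23). Tmem237, a transition zone membrane protein gene, rose, at 2765 and 2898 in Q344X against 1737 and 1750 in WT (0.70). That call was lost under 75th percentile scaling, quantile normalization and other alternatives, and it held in 6 of 13. Of the other IFT-B, IFT-A and dynein-2 genes in the list, 14 were tested and 0 passed (limma, 0 higher and 4 lower at an unadjusted p under 0.05); Ttc26 came nearest, at -0.87 (adjusted p = 0.0505). Of 6 tested transcription factor genes, 5 of them RFX genes and the other Foxj1, 0 passed (limma, also 0 at an unadjusted p under 0.05), and Rfx7, with the highest normalized count not divided by length, had 0.56. In the remaining roles the genes with the highest normalized count, again not divided by length, that did not pass were Traf3ip1 (-0.18), Wdr35 (-0.51), Dync2h1 (-1.06), Lztfl1 (0.06), Lca5 (-0.60), Ttbk2 (-0.81) and Pcm1 (-0.38). Markers of motile ciliated epithelium summed to 971 and 672 in Q344X against 1414 and 891 in WT. Ccdc39 made up most of each sum, at 770 and 361 in Q344X against 1282 and 725 in WT. Of the 5 tested, 4 had log2 fold changes above 0 and 1 below, with a median of 0.63. In limma 0 of these 5 passed the threshold, and 1 was higher at an unadjusted p under 0.05.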

How the data were processed

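The authors deposited 1 table with a signal per gene and library: read counts scaled by library size factors, for 52636 Ensembl identifiers. According to the submitters' processing notes, FastQC, Trim Galore 0.4.4, STAR, featureCounts, DESeq2 1.16.1 and the build mm10 were used; neither the annotation nor the strand setting used was given in the sources. Replicates are numbered in accession order, which is no ground for pairing libraries. Values are whole multiples of the worth of 1 read within a tolerance of 0.1 reads, which gave the depth; in Q344X replicate 1 and WT replicate 2 that worth is 0.99 and 1.00, too near 1 for this to be a strict check, so the depths are estimates; the tests used the normalized values and no count model. Symbols, positions and exon lengths are those of GENCODE M21 (GRCm38), with 52489 identifiers matched. Genes with a mean of at least 10 were fitted with limma 3.58.1 in R 4.3.3 on log2(value + 1), with genotype as the single term, a mean-variance trend and Benjamini-Hochberg adjustment over the 16833 genes tested, at a threshold of 0.05, two-sided. Fold changes are Q344X over WT on that scale, which understates changes of low genes. The fit had 2 residual and 3.9 prior degrees of freedom, and a permutation of 2 against 2 libraries cannot give a p below 0.333. The design text counts 2 animals per genotype but no label ties a library to an animal, so p-values rest on the spread between these libraries, part of which may be technical. Promoter windows are RefSeq's, GRCm38.p6. The fit was also run on simulated counts with known changes, drawn independently for each gene. Replicate differences shared between genes, as seen here, were not simulated, so that run does not test the fit under them.

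The genes, the lists, the roles and the tests were chosen with earlier results of these data known. Named with full values were the genes past the threshold and, in each role, the gene with the highest level per kilobase and those with the largest and smallest log2 fold change, plus the other ciliary genes past the threshold; others named were chosen after their values were seen. Cell type marker lists are given by counts and sums, and some also by medians. The rule also named the 2 most abundant markers of each type, which are left out here apart from Ccdc39. The rod list is given without 1 gene, which is not reported here. Of the muscle list 3 genes were tested and 1 was lower, at summed values of 97.0 and 103 in Q344X and 130 and 110 in WT. Alternatives changed the pseudocount, filter, scaling, moderation, libraries included, and exon length and GC content.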

Additional observations from a re-analysis of the deposited data

How the results depend on the processing

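With 2 libraries per genotype, the number of genes called moved with the settings. The direction of the called genes could not change when 1 library was left out, because their groups did not overlap. A change of filter or moderation leaves each fold change as it is. With 1 library left out, some genes that did not pass changed sign, such as Ift88 (-0.46 to 0.27) and Cc2d2a (-0.54 to 0.40). No called gene among the 38 changed sign under any of 13 alternatives, and 19 of the 30 that did not pass also passed under none of them. The 7 lower genes became 2 with no filter on low values and 4 without a variance trend, and ranged from 3 to 15 when 1 library was left out. The 1 higher gene became 0 with no filter, 2 under quantile normalization and 3 with the length and GC correction, and 0 to 2 with 1 library left out. The median log2 fold change of the 38 was -0.14 with the length and GC correction and -0.54 to -0.19 with 1 library left out. Over all genes tested the median also moved, from 0.02 in the settings of the text to 0.10 with the correction. It was 0.002 to 0.03 with 1 library left out. Among the other ciliary genes, the 1 higher became 0 with no filter, under 75th percentile scaling, under quantile normalization and without a trend, 5 with the length and GC correction and 0 to 5 with 1 library left out. The 4 lower became 1 with no filter, 2 without a trend, 9 with the correction and 3 to 17 with 1 library left out. Over all genes 919 were higher and 1531 lower, against 153 and 383 with no filter, 1945 and 1912 with the correction, and 555 to 2388 and 904 to 3045 with 1 library left out. The cause of these shifts was not tested; fits without 1 library assume that the lone library varies like the other genotype's pair. No paired analysis was possible because the labels carry no replicate numbers shared between the genotypes.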
